A study of Mus musculus with 12 samples.

Results

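The response described here is that of RasGEF1b-deficient macrophages to lipopolysaccharide (LPS), read from 3 LPS-treated against 3 untreated libraries. These 6 libraries were chosen by their labels out of 12, and the other 6 come from wild-type (WT) macrophages. All are bulk RNA-seq libraries of polyadenylated RNA from bone-marrow-derived macrophages (BMDMs), which are macrophages grown from marrow cells in medium conditioned by L929 fibroblasts. The donor mice were 8 to 12 weeks old, of the C57BL/6 strain, and each group was made in biological triplicate. The deficient (KO) mice carried Rasgef1b-fl/fl;CMVcre, so that exons 7 and 8 of *Rasgef1b* are deleted, which removes part of the catalytic domain and shifts the reading frame. The CMV promoter drives Cre in all tissues, so the gene is deleted in the donor animal and not in macrophages alone. The untreated KO group received nothing, and the LPS-treated group 100 ng/ml of LPS from Escherichia coli O55:B5 for 4 h. The WT macrophages were treated in the same way, and their donors, also C57BL/6, came from a central animal facility, per the study's methods, so that origin and genotype cannot be told apart. The comparison asks which genes change with LPS when RasGEF1b is missing.

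The outer membrane of Gram-negative bacteria contains LPS. Macrophages sense it through Toll-like receptor 4 (TLR4), which, with CD14 and MD-2, signals through the adaptors MyD88 and TRIF. The MyD88 branch activates NF-κB and MAP kinases within minutes and turns on cytokine and chemokine genes, whereas the TRIF branch activates IRF3 and the gene of interferon-β. The secreted interferon then acts back on the cells through JAK kinases and STAT factors and turns on a large set of antiviral genes. RasGEF1b is a guanine nucleotide exchange factor of small GTPases, whose own gene is induced by LPS in macrophages. Per the study, its activity is specific to Rap2, without action on Rap1 or the rest of the Ras subfamily.

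The targeted gene was examined in every library before the response. *Rasgef1b* had 695, 545 and 587 normalized counts (reads per gene divided by a size factor per library) in the untreated KO libraries and 3775, 4192 and 3618 in the LPS-treated ones. In WT macrophages it had 2171, 2001 and 2043 untreated and 12554, 11854 and 11844 with LPS. Each KO library was thus below every WT library of the same treatment. The gene was still raised by LPS in KO macrophages (log2 fold change 2.67, standard error 0.10, limma adjusted p = 5.10e-08). Counts are given for the gene as a whole and not for exons 7 and 8 alone, so they include RNA of the exons that the deletion leaves in place. The 6 KO libraries hold 19866711 to 23194889 reads in genes. Untreated replicate 2 stands apart, with 5.52% of its reads in ribosomal RNA and satellite gene models against 0.0464% to 0.0987% in the other 5 KO libraries, and results that rest on it are given below with and without it. The macrophage identity of the cells was checked on 10 markers, all of which were read in each KO library, with *Lyz2* at 140884, 127644 and 170128 normalized counts untreated and 166959, 128987 and 177890.0 with LPS. The summed macrophage markers were at 229772 to 284469 normalized counts untreated and 282934 to 349156 with LPS.

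With the size factors of the authors, about as many genes rose as fell with LPS in KO macrophages, whereas with total count scaling most called genes were lower. Of 12732 genes with a mean of at least 10 normalized counts, 2201 (17.3%) were called higher and 2108 (16.6%) lower, at a limma adjusted p under 0.05 and at least a 2-fold change. These shares are the background for the counts of every gene list below. The median over all tested genes was a log2 fold change of -0.01. When each library was scaled to its total count instead, this median shifted by -0.68 and the calls split into 1403 higher and 4725 lower. Changes below are given with the authors' size factors, relative to that median. The rises were the larger ones, the median log2 fold change being 2.19 for the genes called higher and -1.65 for those called lower. Genes called higher by at least 4 on the log2 scale numbered 408, by at least 6 they numbered 140 and by at least 8 they numbered 50. The corresponding falls numbered 79, 8 and 0. Counting every change past an adjusted p under 0.05 without a fold limit gave 4626 higher and 4548 lower genes. Groups did not overlap for 9743 of the tested genes (76.5%) and for 4292 of the 4309 genes called.

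The composition of the RNA moved with these genes. The 2201 genes called higher took 12.9%, 11.0% and 11.8% of the reads in the untreated KO libraries and 44.8%, 41.7% and 42.9% in the LPS-treated ones. The 2108 genes called lower took 8.34%, 7.61% and 8.28% untreated and 1.44%, 1.61% and 1.5% with LPS. The plot of read shares shows no overlap between treatments for either set, a separation that the choice of the sets fixes. By level, 19 genes went from a mean under 10 normalized counts to at least 1000, and 539 from under 10 to between 10 and 1000. In the other direction, 502 genes went from between 10 and 1000 to under 10, and no gene went from at least 1000 to under 10.

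**Figure D1:**
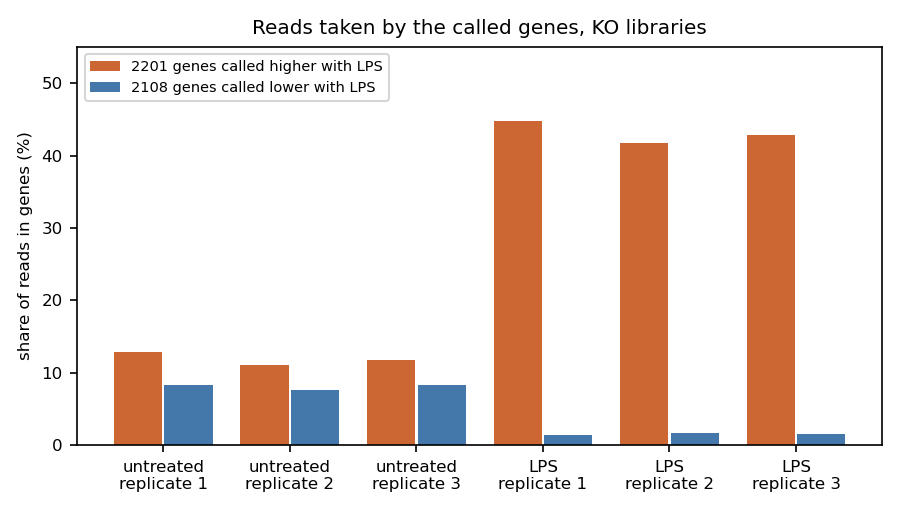
Share of the reads in genes (y axis, %) taken by the genes called higher (orange) and lower (blue) with LPS, in each of the 6 KO libraries (x axis). The genes called higher rise from between 11.0% and 12.9% of the reads to between 41.7% and 44.8%.

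The 10 genes with the largest rises ranged in log2 fold change from 9.85 to 10.57. *Edn1*, which encodes the vasoconstrictor endothelin-1, had 3.53, 5.99 and 8.59 normalized counts untreated and 5864, 6527 and 6871 with LPS (log2 fold change 9.90, standard error 0.24, limma adjusted p = 5.29e-09). *Cd69*, a membrane protein of activated leukocytes, had 19, 20.5 and 26.5 untreated and 31581, 24284 and 23606 with LPS (log2 fold change 10.17, standard error 0.14, limma adjusted p = 5.24e-10). *Ptgs2*, the inducible cyclooxygenase of prostaglandin synthesis, had 30.3, 30.8 and 24.3 untreated and 25054, 34396 and 30283 with LPS (log2 fold change 9.98, standard error 0.13, limma adjusted p = 2.90e-10). In all 3 genes the lowest LPS-treated library was far above the highest untreated one. *Gbp4*, of the interferon-induced guanylate-binding proteins, went from 17.6, 6.84 and 9.31 to 13571, 9316 and 9311, a log2 fold change of 9.85. *Serpina3g*, an intracellular protease inhibitor, went from 2.12, 3.42 and 2.86 to 6784, 4012 and 4164, a log2 fold change of 10.33. *Serpina3f*, *Nos2*, *Acod1*, *Cxcl10* and *Cxcl9* complete the 10, with log2 fold changes of 10.57, 10.49, 10.37, 10.24 and 9.92. The members of the Serpina3 cluster are near-identical copies, and reads of these genes may be split or lost between them.

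In amount of RNA rather than in fold, *Rsad2*, *Cmpk2*, *Ifit2*, *Actb* and *Cxcl10* gained most normalized counts. *Rsad2*, which encodes the antiviral enzyme viperin, went from 1527, 703 and 670.2 normalized counts to 461742, 402952 and 443592 (log2 fold change 8.92, standard error 0.28, limma adjusted p = 1.91e-08). *Cmpk2*, a mitochondrial nucleotide kinase gene beside it, went from 954, 423 and 430.3 to 282016, 241340.0 and 258446. *Ifit2*, whose protein binds RNA in infected cells, went from 2140.2, 517 and 494 to 288623, 232073 and 250341. Untreated replicate 1 had the highest level of each of these 3 genes. *Actb*, the β-actin gene, went from 106361, 117299 and 100407 to 329528, 267557 and 306736 (log2 fold change 1.48), a call that was lost with total count scaling and with quantile normalization. Per kilobase of exon, the mean LPS-treated level was 112000.0 normalized counts for *Actb*, 101000.0 for *Rsad2*, 74100.0 for *Cxcl10* and 57000.0 for *Acod1*. On that per-length scale *Rsad2* was thus below *Actb* with LPS, and untreated it was at 223 against 40300.0.

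Some genes had no read in any untreated KO library. Of the tested genes, 15 had 0 reads over the 3 untreated libraries and 3 had 0 reads over the 3 LPS-treated ones. *Ifnb1*, the interferon-β gene, had 61.7, 57.5 and 51.7 normalized counts with LPS, at least 75.1-fold above the floor, set at 3 counts summed over the untreated libraries. *Gbp11* was at least 205-fold higher, *Serpina3i* at least 177-fold, the chemokine gene *Ccl17* at least 48.4-fold, and *Il12a*, which encodes the p35 chain of interleukin-12, at least 38.4-fold. These genes were named after their values were seen. *Gm15513* was the gene with the largest fall, from 152, 166 and 203 to 0 in each LPS-treated library, at least 134-fold lower. It lies within an intron of *Zfyve28* on the same strand, so that reads of unspliced *Zfyve28* RNA and of *Gm15513* cannot be told apart.

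**Figure D2:**
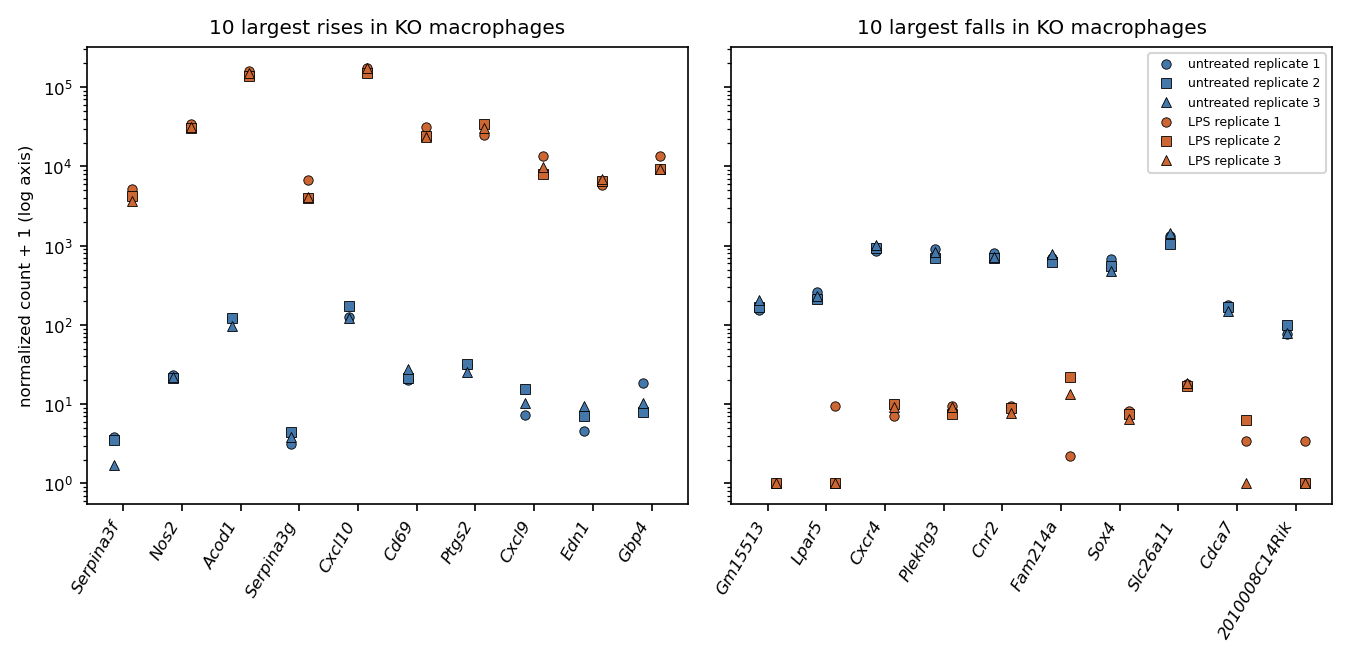
Normalized counts plus 1 (y axis, log scale) of the 10 genes with the largest rise (left) and the 10 with the largest fall (right) in KO macrophages, with 1 point for each library, untreated in blue and LPS-treated in orange, and replicates by symbol. In every gene shown the 3 untreated and the 3 LPS-treated libraries do not overlap.

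The genes that fell furthest included several receptor genes. *Cxcr4*, the receptor of CXCL12, fell from 855, 925 and 1025 normalized counts to 6.05, 9.15 and 8.17. *Cnr2*, the cannabinoid receptor of immune cells, fell from 808, 705 and 718 to 8.47, 7.85 and 6.81 (log2 fold change -6.42, standard error 0.15, limma adjusted p = 4.06e-09). *Lpar5*, a receptor of lysophosphatidic acid, fell from 262, 212 and 231 to 8.47, 0 and 0 (log2 fold change -6.80, standard error 0.78, limma adjusted p = 5.90e-05). The WT libraries of *Lpar5* went from 233, 244 and 239 to 8.44, 6.82 and 5.56, and its response differed by -1.87 (limma adjusted p = 0.999), or by -2.95 without LPS-treated KO replicate 1 (limma adjusted p = 0.00175). *Cxcr4*, *Cnr2* and *Lpar5* encode G protein-coupled receptors, and in each the LPS-treated KO libraries were below 10 normalized counts. *Plekhg3*, which encodes a guanine nucleotide exchange factor, went from 916, 691 and 823 to 8.47, 6.54 and 8.17 (log2 fold change -6.54). *Slc26a11*, an anion transporter gene, went from 1337, 1041 and 1434 to 16.9, 15.7 and 17.7 (log2 fold change -6.15). *Sox4* and *Cdca7*, a transcription factor gene and a gene of proliferating cells, had log2 fold changes of -6.26 and -5.89. *Fam214a* and *2010008C14Rik* were at -6.35 and -5.81. The losses in amount of RNA gave other names: *CT010467.1*, *Gm23935* and *Lars2* had their excess in untreated replicate 2 and were not called, and *Sirpa* went from 45794, 44979 and 44631 to 24044, 22909 and 24169, with a log2 fold change of -0.93 that is short of the 2-fold limit. *Neat1*, a nuclear non-coding RNA, went from 32092, 33412 and 44678 to 18893, 15430.2 and 20625 and was also just short of it.

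The interferon-stimulated genes rose as a whole. Of 42 listed, 42 were tested and 42 were called higher, and their median log2 fold change was 5.66 against -0.01 over all tested genes. The smallest rise was that of *Irf9*, a subunit of the interferon-activated factor ISGF3, from 1469, 818 and 891 to 3309, 2867 and 3080.2 (log2 fold change 1.59), named after its values were seen. The largest was that of *Gbp5*, from 104, 80.4 and 83.1 to 73781, 61929 and 70834 (log2 fold change 9.58, standard error 0.11, limma adjusted p = 1.63e-10). *Ifi205*, of the DNA-sensing p200 family, went from 38.8, 30.8 and 25.1 to 26101, 19988 and 23129 (log2 fold change 9.48). The untreated levels of these genes differed between the KO replicates. Their summed level was 54183.4 normalized counts in untreated replicate 1 and 21084.6 and 21772.6 in replicates 2 and 3, and untreated replicate 1 was the highest of its group for 42 of the 42 genes, against 39.6% of all tested genes. With LPS the sums were 2116080.0, 1801220.0 and 1958750.0, and replicate 1 was the highest for 37 of 42. The neutrophil markers were also higher in the KO libraries of replicate 1, with a sum of 615.8 untreated against 289.0 and 343.7. With LPS the sum was 1252 against 423.6 and 526.7. Untreated WT replicate 1 was the highest of its group for 40 of the 42 interferon-stimulated genes, but its neutrophil sum was 269.9 against 306.3 and 635.6. LPS-treated WT replicate 3 was the highest for 33 of the 42, with a neutrophil sum of 724.8 against 325.1 and 487.2. The part of the neutrophil markers in the result was not tested. Without the KO libraries of replicate 1 the median log2 fold change of the interferon-stimulated genes was 5.96. The Schlafen family, whose members are also interferon-induced, was called higher for 7 of 7 tested, with a median of 4.57 and with *Slfn4* going from 20.5, 16.2 and 8.59 to 1084, 1285 and 1064. Reads of the near-identical Schlafen genes may be split between them.

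**Figure D3:**
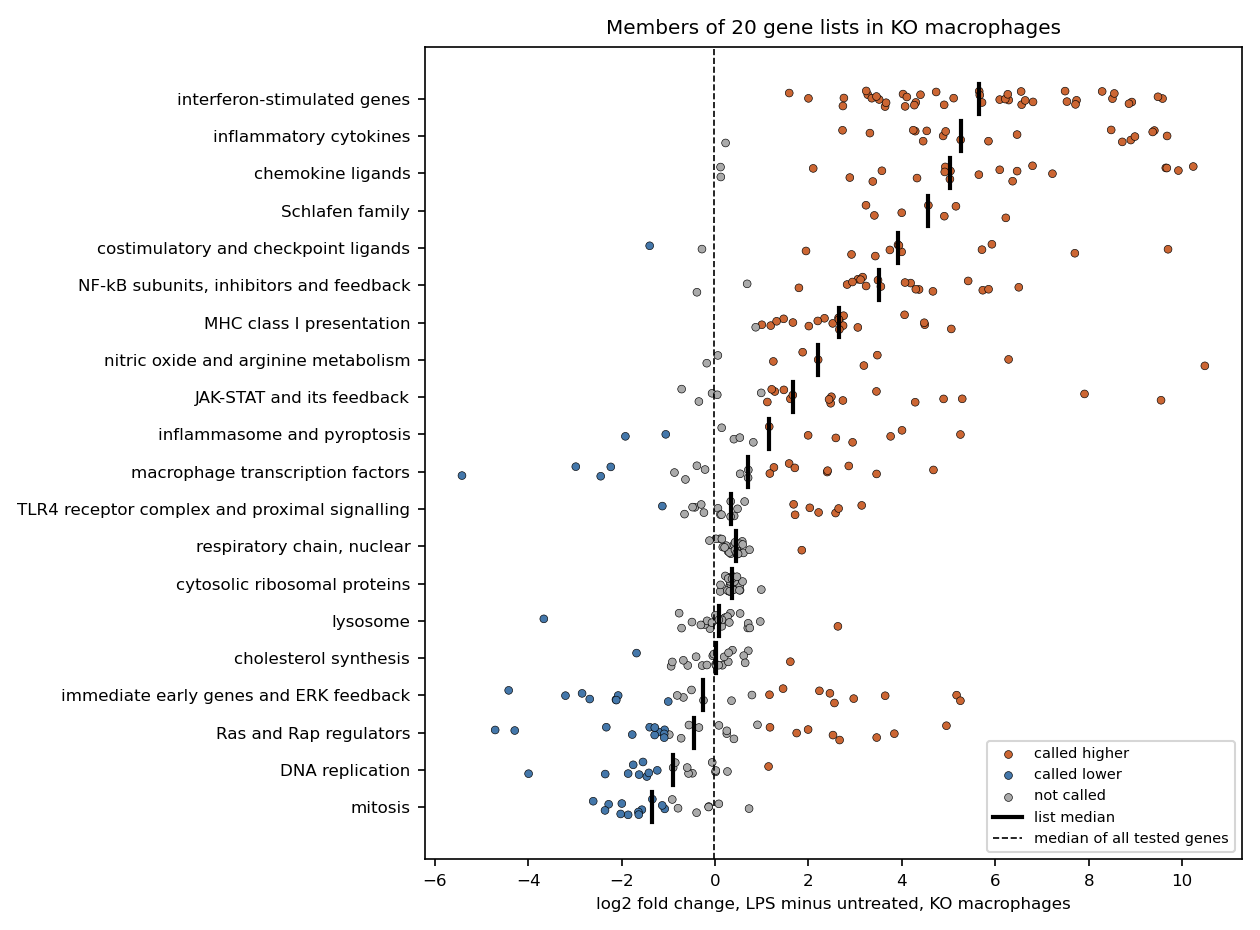
Log2 fold change with LPS in KO macrophages (x axis) of each tested member of 20 gene lists (rows), orange where called higher, blue where called lower and grey where not called, with black bars for the list medians and a dashed line for the median of all tested genes. The medians run from 5.66 for the interferon-stimulated genes to -1.34 for mitosis.

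To see what the rising genes share in sequence, the promoter windows of RefSeq on GRCm38.p6 (250 bases before and 50 after each transcription start) were searched on both strands for the core of the interferon-stimulated response element, GAAA followed by any 2 bases and GAAA again, and for the NF-κB consensus. Promoters of 5 genes are shown, from 250 bases before the start up to it, because they carry the matches beside some of the strongest rises. Capitals mark the matches, and sequences run in the direction of transcription.
Cxcl10 promoter, chr5:92348890-92349139, minus strand: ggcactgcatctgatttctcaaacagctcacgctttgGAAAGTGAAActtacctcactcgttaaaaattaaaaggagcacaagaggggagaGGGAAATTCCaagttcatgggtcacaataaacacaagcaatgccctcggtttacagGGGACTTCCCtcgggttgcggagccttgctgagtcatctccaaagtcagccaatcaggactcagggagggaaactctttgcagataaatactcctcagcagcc
Gbp5 promoter, chr3:142496684-142496933, plus strand: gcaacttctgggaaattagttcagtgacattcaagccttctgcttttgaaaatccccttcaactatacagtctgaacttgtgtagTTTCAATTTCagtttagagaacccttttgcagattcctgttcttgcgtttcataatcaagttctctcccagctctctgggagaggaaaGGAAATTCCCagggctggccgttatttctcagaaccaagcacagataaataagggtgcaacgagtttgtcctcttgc
Rsad2 promoter, chr12:26456453-26456702, minus strand: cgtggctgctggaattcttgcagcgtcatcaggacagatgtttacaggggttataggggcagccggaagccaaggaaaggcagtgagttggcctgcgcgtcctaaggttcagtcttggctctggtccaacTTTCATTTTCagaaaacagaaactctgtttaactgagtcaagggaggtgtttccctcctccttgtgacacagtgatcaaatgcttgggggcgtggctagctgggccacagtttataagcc
Edn1 promoter, chr13:42301226-42301475, plus strand: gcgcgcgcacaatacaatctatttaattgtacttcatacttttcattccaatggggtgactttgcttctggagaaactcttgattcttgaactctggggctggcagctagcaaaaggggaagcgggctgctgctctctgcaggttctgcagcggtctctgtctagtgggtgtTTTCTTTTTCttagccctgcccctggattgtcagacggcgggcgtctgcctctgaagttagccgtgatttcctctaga
Nfkbia promoter, chr12:55492648-55492897, minus strand: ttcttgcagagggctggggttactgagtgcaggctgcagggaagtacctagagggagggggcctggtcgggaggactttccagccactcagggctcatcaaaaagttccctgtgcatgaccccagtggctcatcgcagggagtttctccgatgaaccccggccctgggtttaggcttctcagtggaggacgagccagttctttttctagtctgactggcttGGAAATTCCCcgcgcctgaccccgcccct
*Cxcl10* (chromosome 5 from 92346638 to 92348889, minus strand) has a response element core from -213 to -204 and NF-κB matches from -159 to -150 and from -103 to -94. *Gbp5* (chromosome 3 from 142493978 to 142522344, plus strand) has a core from -165 to -156 and an NF-κB match from -77 to -68. For *Gbp5* these positions count from a RefSeq start that lies inside the stated gene span, not from its first base. *Rsad2* (chromosome 12 from 26442746 to 26456452, minus strand) and *Edn1* (chromosome 13 from 42301476 to 42307990, plus strand) have a core each, from -120 to -111 and from -78 to -69. *Nfkbia* (chromosome 12 from 55489410 to 55492647, minus strand), which encodes the NF-κB inhibitor IκBα, has an NF-κB match from -29 to -20. No match of either motif lies in the windows of *Serpina3f*, *Acod1*, *Ptgs2*, *Cxcl9*, *Cmpk2* or *Ifit2*, which says only that these letters are not in those windows.

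The share of promoters with the response element core rose with the size of the rise. Windows were found for 9609 of the 12732 tested genes. The response element core was matched in 4.12% of these genes, in 9.68% of the genes called higher and in 2.23% of those called lower. Among the genes called higher it was matched in 5.96% for a log2 fold change from 1 to 2, in 9.78% from 2 to 4, in 15.1% from 4 to 6 and in 25.5% (26 of 102) from 6. None of the 52 genes called lower with a log2 fold change of -4 or less had it. The NF-κB consensus was matched in 6.33% of the genes, in 9.37% of those called higher and in 5.29% of those called lower, and in 17.3% of the genes with a log2 fold change from 4 to 6 and 14.7% of those from 6. By list, 20 of 32 interferon-stimulated genes had the response element core, and 9 of 16 NF-κB pathway genes and 8 of 17 genes of MHC class I presentation had the NF-κB consensus. Among ribosomal protein genes, none of which was called, 5 of 25 had the response element core. Over all 32851 promoter windows the shares were 3.44% and 4.51%.

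**Figure D4:**
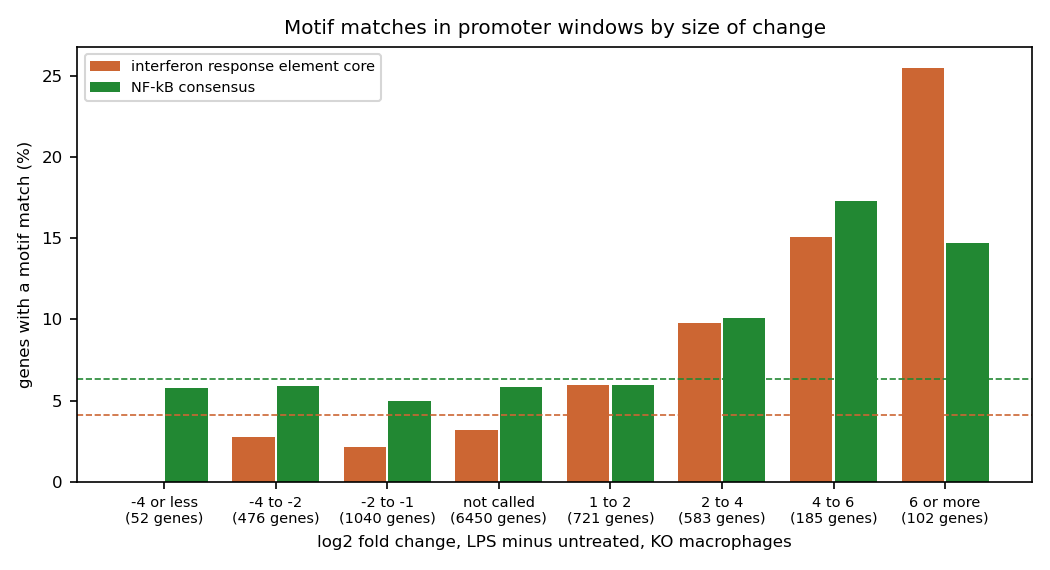
Share of genes with a motif match in a promoter window (y axis, %) by log2 fold change with LPS in KO macrophages (x axis, number of genes in parentheses), for the response element core in orange and the NF-κB consensus in green, with dashed lines for all tested genes. The orange share goes from 3.21% of the genes not called to 25.5% of those with a log2 fold change of 6 or more.

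Cytokine and chemokine ligand genes were induced nearly throughout. Of 19 cytokine genes tested, 18 were called higher and 0 lower, with a median log2 fold change of 5.26. *Il6*, a cytokine of the acute-phase response, had 1.41, 5.13 and 3.58 normalized counts untreated and 3215, 4010.2 and 2881 with LPS (log2 fold change 9.68, standard error 0.31, limma adjusted p = 2.40e-08). *Il1b*, the interleukin-1β gene, had 17.6, 17.1 and 30.1 untreated and 10402, 21579.6 and 14557 with LPS. *Il12b*, which encodes the chain shared by interleukin-12 and interleukin-23, had 2.82, 0 and 2.15 untreated and 1277, 2025 and 1342 with LPS. Each of the 3 genes was near absent in the untreated libraries, and each had its highest LPS-treated value in replicate 2. *Tnfsf15*, a TNF family cytokine gene, had a log2 fold change of 8.99. *Osm*, the gene of oncostatin M, was the member not called, at 89.6, 82.9 and 111 untreated and 127, 116 and 89.8 with LPS, and was named after its values were seen. Of 21 chemokine ligand genes tested, 19 were called higher and 0 lower, with a median of 5.04. *Ccl5*, a chemokine that attracts T cells and monocytes, went from 72.7, 50.5 and 71.6 to 56088, 46116 and 55141 (log2 fold change 9.65, standard error 0.14, limma adjusted p = 5.68e-10). *Cxcl11*, typed as a polymorphic pseudogene in GENCODE M21, went from 0, 4.28 and 3.58 to 3496, 1862 and 2013 (log2 fold change 9.67). *Cxcl9* and *Cxcl10* are typed as protein-coding and encode ligands of CXCR3, and whether *Cxcl11* RNA yields such a ligand here was not tested. The 2 ligands not called, *Ccl6* and *Cxcl14*, had log2 fold changes of 0.12 and 0.12, and were named after their values were seen.

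Of 12 chemoattractant receptor genes tested, 3 (25%) were called higher and 2 (16.7%) lower, beside 17.3% and 16.6% of all genes, with a median log2 fold change of 0.10, which was negative with total count scaling and with quantile normalization. *Fpr2* and *Fpr1*, the formyl peptide receptor genes, had log2 fold changes of 7.06 and 5.57, with *Fpr2* going from 5.64, 3.42 and 3.58 to 746, 587 and 734. *Ccrl2*, an atypical receptor that binds chemerin, went from 133, 124 and 129.6 to 7997, 7097 and 7588 (log2 fold change 5.86). The fall of *Cxcr4* is given above, and *C5ar2*, named after its values were seen, had a log2 fold change of -1.71. *Ccr2*, the CCL2 receptor of monocytes, had 1912, 489 and 648 untreated and 839, 235 and 289 with LPS and was not called (adjusted p = 0.105). Within the same-numbered pairs of libraries the log2 difference, LPS-treated minus untreated, was -1.19, -1.05 and -1.16, and with the replicate number as a block it was called lower (limma adjusted p = 8.87e-07). As with the interferon-stimulated genes, replicate 1 was the highest of both groups for *Ccr2*, which was named after its values were seen.

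Genes of the NF-κB subunits and of the inhibitors and feedback regulators of the pathway rose. Of 20 tested, 18 were called higher and 0 lower, with a median log2 fold change of 3.52. *Nfkbia* had 506, 446 and 524 normalized counts untreated and 27050.2, 23904 and 27675 with LPS (log2 fold change 5.73, standard error 0.08, limma adjusted p = 5.68e-10). *Tnfaip3*, the gene of the deubiquitinase A20, had 636, 785 and 859 untreated and 36602, 28132 and 32758 with LPS (log2 fold change 5.42, standard error 0.13, limma adjusted p = 4.73e-09). For both inhibitors the LPS-treated libraries were far above every untreated one. Groups did not overlap for 4292 of the 4309 genes called and 76.5% of all tested genes. *Traf1* and *Nfkbiz*, a signalling adaptor gene and the gene of the nuclear co-regulator IκBζ, had log2 fold changes of 6.50 and 5.86. *Irak3* and *Nfkbid* were not called, at 0.69 and -0.39, and were named after their values were seen. In the TLR4 receptor complex and its proximal signalling, 7 of 21 (33.3%) were called higher and 1 (4.76%) lower, beside 17.3% and 16.6% of all genes. Their median of 0.34 turned to -0.35 with total count scaling. *Ikbke*, the kinase gene upstream of IRF3, went from 1565, 1305 and 1674 to 15033, 11828 and 13201 (log2 fold change 3.14), and *Irak2*, *Myd88* and *Cd14* had log2 fold changes of 2.65, 2.58 and 2.22. *Tlr4* itself was at 2210.1, 1828 and 1805 untreated and 1483, 1510.2 and 1329.8 with LPS, a log2 fold change of -0.43 within the 2-fold limit, and *Tab1* was the member called lower at -1.13. These 2 were named after their values were seen.

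Feedback genes of cytokine signalling were among the strongest rises. *Socs3*, an inhibitor of gp130 receptor signalling, went from 53.6, 37.6 and 45.1 to 36653, 31000.4 and 35913 (log2 fold change 9.55, standard error 0.12, limma adjusted p = 2.90e-10). *Socs1*, an inhibitor of JAK kinases, went from 19, 18 and 19.3 to 6186, 4029.8 and 4312 (log2 fold change 7.91, standard error 0.15, limma adjusted p = 2.23e-09). *Cish*, of the same family, and the kinase gene *Jak2* had log2 fold changes of 5.29 and 4.89. Over the JAK-STAT list, 16 of 21 tested were called higher and 0 lower, with a median of 1.67. Of 10 factors that act on the stability of cytokine mRNA, 3 were called higher and 2 lower, 30% and 20% beside 17.3% and 16.6% of all genes. *Zfp36*, the gene of tristetraprolin, went from 2915, 2383 and 2597 to 23922, 22973 and 24607 (log2 fold change 3.18), and *Zc3h12a* and *Zc3h12c*, of the regnase family, had 3.12 and 2.81. *Zfp36l1*, a paralog of *Zfp36*, went the other way, from 3978, 2653 and 3592 to 121, 109 and 118 (log2 fold change -4.85, standard error 0.14, limma adjusted p = 1.31e-08). Untreated and LPS-treated libraries of *Zfp36* and of *Zfp36l1* did not overlap, as in 4292 of the 4309 genes called and 76.5% of all tested genes.

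Genes of antigen presentation by MHC class I were higher with LPS. Of 21 class I pathway genes, 20 were called higher and 0 lower, with a median log2 fold change of 2.65. *Nlrc5*, the class I transactivator, went from 965, 496 and 538 to 15482, 13156 and 14087 (log2 fold change 4.48, standard error 0.22, limma adjusted p = 2.62e-07). *Tap1*, a subunit of the peptide transporter, went from 1860.2, 958 and 1058 to 22829, 18262 and 20968 (log2 fold change 4.06). Untreated replicate 1 was the highest of its group for both. *H2-Q7* and *H2-Q6* had log2 fold changes of 5.06 and 4.49, and reads of these near-identical class I genes may be split between them. Of 7 class II pathway genes, 3 were called higher, with a median of 0.96. *Ciita*, the class II transactivator, went from 31.7, 25.7 and 33.7 to 204, 237 and 201 (log2 fold change 2.78), and *Cd74* and *H2-Ab1* had 1.41 and 1.38, calls that were lost with total count scaling. Of 13 costimulatory and checkpoint ligand genes, 11 were called higher and 1 lower. *Tnfsf4*, the OX40 ligand gene, went from 2.12, 0 and 3.58 to 1524, 2797 and 1915 (log2 fold change 9.70). *Cd40* went from 159, 183 and 163 to 34939, 33541 and 37260.1 (log2 fold change 7.70, standard error 0.07, limma adjusted p = 1.21e-10). *Icam1*, an integrin ligand, and *Cd274*, the PD-L1 gene, had log2 fold changes of 5.93 and 5.72. *Vsir*, the gene of the checkpoint protein VISTA, was the member called lower (-1.40), named after its values were seen.

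*Nos2*, *Ptgs2* and *Acod1*, named above among the largest rises, make nitric oxide, prostaglandins and itaconate. In the nitric oxide and arginine list, 7 of 9 were called higher and 0 lower. *Slc7a2*, the arginine transporter, went from 98.1, 121 and 106 to 6718, 11237 and 8142 (log2 fold change 6.28, standard error 0.17, limma adjusted p = 9.58e-09). *Gch1*, which makes the cofactor of nitric oxide synthase, and *Ass1*, which regenerates arginine, had log2 fold changes of 3.19 and 3.47. In prostaglandin and leukotriene synthesis, 3 of 13 were called higher and 2 lower, 23.1% and 15.4% beside 17.3% and 16.6% of all genes. Beside *Ptgs2*, *Ptges*, the inducible prostaglandin E synthase, went from 33.2, 41.9 and 39.4 to 584, 788 and 731 (log2 fold change 4.16), and *Pla2g4a*, which releases arachidonic acid, had 3.30. *Hpgd*, which degrades prostaglandins, had a log2 fold change of -1.14, a call that was lost with upper quartile scaling, with quantile normalization and without untreated replicate 1, untreated replicate 3 or LPS-treated replicate 2. *Acod1* was the 1 gene of 19 called higher in the itaconate and TCA cycle list, and *Idh1*, at -1.04, the 1 called lower, a call that was lost with upper quartile scaling and without LPS-treated replicate 1 (-0.98). In glycolysis and the hypoxia response 6 of 19 (31.6%) were called higher and 1 (5.26%) lower, beside 17.3% and 16.6% of all genes. *Pfkfb3*, which makes an activator of phosphofructokinase, went from 627, 670.4 and 630.1 to 6253, 5445 and 6876 (log2 fold change 3.26), and *Hk2* and *Pfkp* had 2.79 and 1.90. *Vegfa*, the gene of vascular endothelial growth factor, fell from 1756, 2348 and 2394 to 145, 139 and 121 (log2 fold change -3.98, standard error 0.13, limma adjusted p = 2.54e-08).

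Several housekeeping lists had few or no calls. Of 35 cytosolic ribosomal protein genes 0 were called, and of 11 mitochondrially encoded respiratory chain genes 0 were called. Their median log2 fold changes were 0.36 and 0.47, and both turned negative with quantile normalization and, to -0.33 and -0.22, with total count scaling. Of 26 nuclear respiratory chain genes 1 was called higher, *Cycs*, the cytochrome c gene (1.86). Of 22 cholesterol synthesis genes 1 was called in each direction, with *Dhcr7*, of the last steps of the pathway, at -1.68. Of 27 lysosomal genes 1 was called in each direction. *Ctsc*, the gene of cathepsin C, had a log2 fold change of 2.63. *Tfeb*, the transcription factor that drives lysosomal genes, fell from 1005, 1108 and 1129 to 84.7, 85 and 83 (log2 fold change -3.66, standard error 0.08, limma adjusted p = 4.24e-09). In the Nrf2 and antioxidant list, 4 of 17 (23.5%) were called higher and 2 (11.8%) lower, beside 17.3% and 16.6% of all genes. There *Sod2*, the mitochondrial superoxide dismutase, was at 4.42 and *Gclc*, which makes glutathione, at -2.08. In the oxysterol list, 1 of 11 (9.09%) was called higher and 2 (18.2%) lower, beside the same shares of all genes. *Ch25h*, which makes 25-hydroxycholesterol, went from 4.23, 4.28 and 1.43 to 358, 231 and 335 (log2 fold change 6.22), and *Scd2*, a fatty acid desaturase, had -3.11.

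Transcription factors of the macrophage lineage went in both directions. Of 20 tested, 9 (45%) were called higher and 4 (20%) lower, beside 17.3% and 16.6% of all genes. *Cebpa*, a factor of myeloid differentiation, fell from 3051, 3295 and 3483 normalized counts to 73.8, 70.6 and 83 (log2 fold change -5.42, standard error 0.09, limma adjusted p = 9.64e-10). Its relative *Cebpd* rose from 192, 168 and 191 to 4821, 4333 and 4998 (log2 fold change 4.68, standard error 0.08, limma adjusted p = 1.34e-09). The groups did not overlap for either gene, as for 4292 of the 4309 genes called and 76.5% of all tested genes. *Irf8* rose from 3885, 3387 and 3902 to 46290.3, 38391 and 38447 (log2 fold change 3.46). In scavenger and efferocytosis receptors, 6 of 16 (37.5%) were called higher and 3 (18.8%) lower, beside 17.3% and 16.6% of all genes. *Olr1*, a receptor of oxidized LDL, went from 0, 0.855 and 3.58 to 591, 948 and 934 (log2 fold change 8.63), and *Marco* and *Tyro3* had 2.49 and 3.26. *Cd163*, the haemoglobin scavenger receptor, fell from 466, 375 and 494 to 60.5, 58.8 and 53.1 (log2 fold change -2.92). Complement and Fc receptor genes were called higher for 5 of 14 (35.7%) and lower for 0, beside 17.3% and 16.6% of all genes. There C3 went from 397, 149.7 and 211 to 31632, 22001 and 22115 (log2 fold change 6.74). The matrix protease gene *Adamts4*, an aggrecanase, had a log2 fold change of 9.15, and the collagenase gene *Mmp13* went from 1134, 1549 and 1136 to 74356, 50150.5 and 57923 (log2 fold change 5.57). Of 12 genes of matrix proteases and their inhibitors, 5 (41.7%) were called higher, beside 17.3% of all genes. Among serpins 7 of 13 (53.8%) were called higher and 1 (7.69%) lower, beside 17.3% and 16.6% of all genes.

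Of 13 inflammasome genes tested, 7 (53.8%) were called higher and 2 (15.4%) lower, beside 17.3% and 16.6% of all genes. *Nlrp3*, the sensor of the canonical inflammasome, went from 779, 643 and 683 to 8458, 10008 and 10082 (log2 fold change 3.76, standard error 0.09, limma adjusted p = 6.62e-09), and *Casp4*, which senses cytosolic LPS, from 529, 375 and 464 to 7893, 6536 and 7395 (log2 fold change 4.00, standard error 0.13, limma adjusted p = 2.01e-08). *Aim2*, a DNA sensor, and *Mefv*, the pyrin gene, had log2 fold changes of 2.95 and 5.25, with LPS-treated *Mefv* at 344, 64.1 and 154, a wide spread with replicate 1 the highest. Of 13 BCL2 family genes, 4 were called higher and 2 lower, 30.8% and 15.4% beside 17.3% and 16.6% of all genes. *Bcl2a1a*, an anti-apoptotic member, went from 2.82, 2.57 and 0.716 to 590.3, 601 and 672, and *Bcl2a1d* and *Bcl2a1b* had log2 fold changes of 6.30 and 4.09, though reads of these near-identical copies may be split between them. *Bcl2* fell from 249.7, 297 and 256 to 44.8, 44.5 and 34 (log2 fold change -2.68).

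Cell cycle genes were read as lists of mitosis and of DNA replication. Of 19 mitosis genes, 12 (63.2%, beside 16.6% of all genes) were called lower, 0 higher and 7 neither (median log2 fold change -1.34). *Cdc20*, which activates the ubiquitin ligase of anaphase, fell from 497, 507 and 403 to 81, 75.8 and 70.8 (log2 fold change -2.61, standard error 0.12, limma adjusted p = 2.03e-07). *Cenpf*, a kinetochore gene, fell from 974, 843 and 848 to 163, 197 and 159 (log2 fold change -2.35), and *Kif20a* and *Aurkb* had -2.28 and -2.02. *Mki67*, the proliferation marker, was at 4403, 3791 and 3842 untreated and 3561, 3799.7 and 3595 with LPS and was not called (log2 fold change -0.13, adjusted p = 0.13), and was named after its values were seen. Of 19 DNA replication genes, 9 (47.4%) were called lower, 1 (5.26%) higher and 9 neither, with a median of -0.90. *Cdc6*, which loads the replicative helicase, fell from 191, 189 and 184 to 7.26, 14.4 and 12.2 (log2 fold change -3.99, standard error 0.25, limma adjusted p = 1.09e-06). *Mcm2*, a subunit of that helicase, fell from 865, 847 and 802 to 179, 179 and 136 (log2 fold change -2.35). *Prim1* and *Rrm2*, of primer and deoxynucleotide synthesis, had -1.86 and -1.75, and *Ccne1*, named after its values were seen, was the member called higher at 1.15. In these bulk samples fewer cycling cells and less RNA of these genes per cell cannot be told apart. In ribosome biogenesis 1 of 21 (4.76%) was called higher, *Rrs1* (1.03), and 3 (14.3%) lower, beside 17.3% and 16.6% of all genes. *Polr1b*, a subunit of RNA polymerase I, was at -1.45. The call of *Rrs1* was lost with total count scaling, TMM scaling, quantile normalization and without untreated replicate 3 (0.98).

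At 4 h the immediate early genes and the feedback inhibitors of ERK signalling were split, with a median log2 fold change of -0.25. Of 23 tested, 9 (39.1%) were called higher and 8 (34.8%) lower, beside 17.3% and 16.6% of all genes. *Dusp2*, a phosphatase of MAP kinases, went from 103, 102 and 98.1 to 5258, 2767 and 4034 (log2 fold change 5.25, standard error 0.20, limma adjusted p = 5.29e-08). *Nr4a3*, of the NR4A nuclear receptors, went from 6.35, 3.42 and 4.3 to 206, 229 and 169 (log2 fold change 5.17), and *Ier3* had 3.64. *Fosb*, of the AP-1 family, went from 45.1, 23.9 and 45.1 to 0, 1.31 and 1.36, with a log2 fold change of -4.42. The members called lower, named after their values were seen except *Fosb*, were *Fos*, *Fosb*, *Egr2*, *Egr3*, *Myc*, *Nr4a1*, *Dusp4* and *Dusp6*. *Dusp6*, the cytoplasmic phosphatase of ERK, went from 1062, 1012 and 921 to 98, 163 and 163 (log2 fold change -2.85).

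Because the deleted protein is an exchange factor of small GTPases, the regulators and GTPases of the Ras and Rap families were described as a group. Of 28 regulators tested, 8 (28.6%) were called higher and 11 (39.3%) lower, beside 17.3% and 16.6% of all genes. Their median log2 fold change was -0.45. *Rasgrp1*, an exchange factor of Ras that responds to diacylglycerol, rose from 5.64, 5.99 and 5.73 normalized counts to 241, 203 and 188 (log2 fold change 4.95, standard error 0.19, limma adjusted p = 6.50e-08). Its relative *Rasgrp3*, which acts on Ras and Rap1, fell from 1035, 934 and 1038 to 35.1, 40.5 and 36.7 (log2 fold change -4.71, standard error 0.10, limma adjusted p = 3.61e-09). *Rapgef2*, an exchange factor of Rap1, rose from 471, 387 and 461 to 5818, 6585 and 6473 (log2 fold change 3.84, standard error 0.09, limma adjusted p = 4.37e-09). *Rapgef3*, the cyclic AMP sensor EPAC1, fell from 99.5, 87.2 and 89.5 to 3.63, 2.62 and 5.44 (log2 fold change -4.29). None of these 4 genes had overlapping groups, and neither did 4292 of the 4309 genes called or 76.5% of all tested genes. *Rasgef1a*, a paralog of the deleted gene named after its values were seen, fell from 117, 152 and 176 to 27.8, 27.5 and 29.9 (log2 fold change -2.33). Rasgef1c had 0, 0 and 0 untreated and 1.21, 1.31 and 1.36 with LPS and was below the level tested. Of 12 GTPase genes, 3 (25%) were called higher and 1 (8.33%) lower, beside 17.3% and 16.6% of all genes. *Rap1b* went from 9189, 9178 and 8526 to 37127, 33442 and 35725 (log2 fold change 1.98), a call that was lost with quantile normalization, and *Rap2c* and *Rras2* had 2.69 and 2.67. No member of either list differed between KO and WT in its response at an adjusted p under 0.05.

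Non-coding genes took part in the response. Of 233 long intergenic RNA genes tested, 47 were called higher and 75 lower, and of 277 antisense genes 83 were called higher and 61 lower, against 1881 and 1834 of 11423 protein-coding genes. *Mir155hg*, the host gene of the microRNA miR-155, went from 4.94, 2.57 and 5.01 to 3277, 2548 and 2824 (log2 fold change 9.16, standard error 0.22, limma adjusted p = 4.73e-09). AW112010, an RNA of activated immune cells, went from 91.7, 63.3 and 73 to 24280.3, 15629 and 20589 (log2 fold change 8.03, standard error 0.17, limma adjusted p = 3.28e-09). *Gm16685*, which lies antisense to the cytokine gene *Il7*, had 0 reads untreated and 278, 316 and 264 normalized counts with LPS, at least 377-fold higher. Whether reads were counted by strand is not given in the sources used here, so reads of an antisense gene and of its partner cannot be told apart. These genes were named after their values were seen.

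Markers of other cell types were read at low levels. The summed markers of T and NK cells ranged from 106.5 to 143.9 normalized counts untreated and from 84.7 to 103.3 with LPS, those of mast cells and basophils from 5.73 to 12.0 and from 2.72 to 13.1, and those of the erythroid and megakaryocyte lineage from 59.4 to 71.2 and from 56.2 to 67.7. Cd3d, Ncr1 and Nkg7 were at 0 in all 6 KO libraries. The B cell markers summed to 577.0 to 728.9 untreated and 307.3 to 427.0 with LPS, most of it *Ighm*, with Pax5 at 0 in the untreated libraries. The dendritic cell markers summed to 80.4 to 91.7 untreated and 244.5 to 337.5 with LPS, and 4 of 6 tested were called higher: *Xcr1* went from 2.82, 3.42 and 2.15 to 82.2, 61.5 and 61.2 (log2 fold change 4.19), *Batf3* from 44.4, 55.6 and 61.6 to 175, 111 and 132, and *Clec9a* and *Ccr9* had 2.40 and 2.76. Flt3 and Siglech stayed below 3 normalized counts in every KO library. The fibroblast and endothelial markers summed to 107.4 to 141.1 untreated and 883.4 to 1207 with LPS, nearly all of it *Kdr*. *Kdr*, a receptor of vascular endothelial growth factor, went from 94.5, 75.3 and 70.2 to 1118, 909 and 843 (log2 fold change 3.56, standard error 0.15, limma adjusted p = 8.61e-08) and *Cdh5* had 1.52, whereas Tek and Lum were at or near 0. Of the neutrophil markers *S100a8* was called higher (1.07), with replicate 1 the highest of both groups, a call that was lost with total count and TMM scaling and without untreated replicate 2, untreated replicate 3 or LPS-treated replicate 1 (0.64). Ly6g was at 0 in all LPS-treated KO libraries. Whether these cells had any part in the response was not tested.

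The ribosomal RNA and satellite gene models had to be set apart, since they carry the excess of untreated replicate 2. Of 8 tested, 4 were called lower: *Gm10718*, *Gm10722*, *Gm10801* and *Gm21738*. *Gm10801* had 8.46, 652 and 29.4 normalized counts untreated and 4.84, 5.23 and 4.08 with LPS, and *Gm21738* had 14.8, 888 and 40.1 untreated and 3.63, 13.1 and 9.53 with LPS. Without untreated replicate 2 the log2 fold change of *Gm10801* went from -3.33 to -1.57 (adjusted p = 0.0399), that of *Gm21738* from -3.24 to -1.53 and was no longer called (adjusted p = 0.0562), and *Gm10722* and *Gm10718* were below the level tested. The calls of *Gm10801* and *Gm21738* were also lost without untreated replicate 3 (adjusted p = 0.0574 and 0.0558) and without any of the LPS-treated replicates. *CT010467.1*, a ribosomal RNA model, took 5.06% of the reads of that library, and its log2 fold change went from -1.55 to 0.62 without it, with no call in either fit. The calls over all genes were 2218 higher and 2041 lower without that library, against 2201 and 2108.

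The response of KO macrophages was set against that of WT macrophages by the interaction of genotype and LPS, fitted to all 12 libraries. Of 12711 genes tested, 1 (0.00787%) had a response that differed between the genotypes at an adjusted p under 0.05, and 537 had an unadjusted p under 0.05. With the replicate number as a block 6 genes differed, and DESeq2 on the recovered reads gave 23. In WT macrophages 2158 of 12656 genes were called higher and 2136 lower. Of genes tested in both, 321 were called in KO and not in WT and 357 in WT and not in KO, and none of these differed in the interaction fitted by limma without a block. The gene that differed was *Ccl4* (chromosome 11 from 83662584 to 83664683, plus strand), which encodes the chemokine MIP-1β. It had 642, 605 and 571 normalized counts in untreated KO and 1142, 1248 and 1202 in untreated WT macrophages. With LPS it had 41246, 40434 and 42622 in KO and 43449, 43074 and 42068 in WT. The untreated groups did not overlap, with KO below WT, whereas the LPS-treated groups overlapped. Its log2 fold change was 6.09 in KO and 5.16 in WT, a difference of 0.93 (standard error 0.08, limma adjusted p = 3.69e-04).

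The other genes with the smallest interaction p did not pass the adjustment in the limma fit without a block, and their values are given as a description. *Ccl3*, the neighbour of *Ccl4* that encodes MIP-1α, had 1103, 1248 and 1259 in untreated KO and 1731, 1893 and 1911 in untreated WT macrophages. With LPS it had 36949, 42762 and 39124 in KO and 38698, 37012 and 38949 in WT. The difference of its responses was 0.67 (adjusted p = 0.102, and 0.00887 with the replicate number as a block). *Ccl2* had 2608, 2424 and 2718 in untreated KO and 5109, 5912 and 4482 in untreated WT macrophages, with a difference of 0.90 (adjusted p = 0.244). As for *Ccl4*, the untreated KO libraries of both genes were below all untreated WT libraries, and the LPS-treated ones overlapped. *Vcam1*, an adhesion molecule gene, had 5.64, 10.3 and 9.31 in untreated KO and 50.5, 62.7 and 140.2 in untreated WT macrophages. With LPS it had 2082, 4372 and 2922 in KO and 3856, 3323 and 3490.2 in WT. Its difference of 2.83 was the largest of the 10 (adjusted p = 0.131, and 0.0159 with the block). *Ifit1bl1*, of the interferon-induced IFIT family, had log2 fold changes of 8.85 in KO and 7.28 in WT (adjusted p = 0.127, and 0.0159 with the block). *Ciita* had 204, 237 and 201 with LPS in KO and 137, 128 and 117 in WT, and there the LPS-treated KO libraries were above all WT ones. *Nos2* was among the genes with the smaller response in KO, with 34087, 30509 and 31314 with LPS against 36177, 39849.9 and 53922 in WT and a difference of -0.99 (adjusted p = 0.244, and 0.00161 with the block). *Lrrc4* also had the smaller response in KO, with log2 fold changes of 1.10 and 2.27, and *Utp3* and *Zfp932* had differences of 0.49 and 0.87. DESeq2 on the recovered reads called *Ccl3* (adjusted p = 2.95e-06), *Ifit1bl1* (2.95e-06), *Ciita* (1.64e-05), *Ccl2* (0.00124), *Vcam1* (0.00144), *Lrrc4* (0.00237) and *Utp3* (0.00298), and did not call *Nos2* or *Zfp932*. DESeq2 also called genes outside the 10, among them *Ccl7* (0.85, adjusted p = 0.0259) and *Acod1* (-0.72, adjusted p = 0.0316). Of 42 interferon-stimulated genes, 0 differed in the limma interaction at an adjusted p under 0.05.

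**Figure D5:**
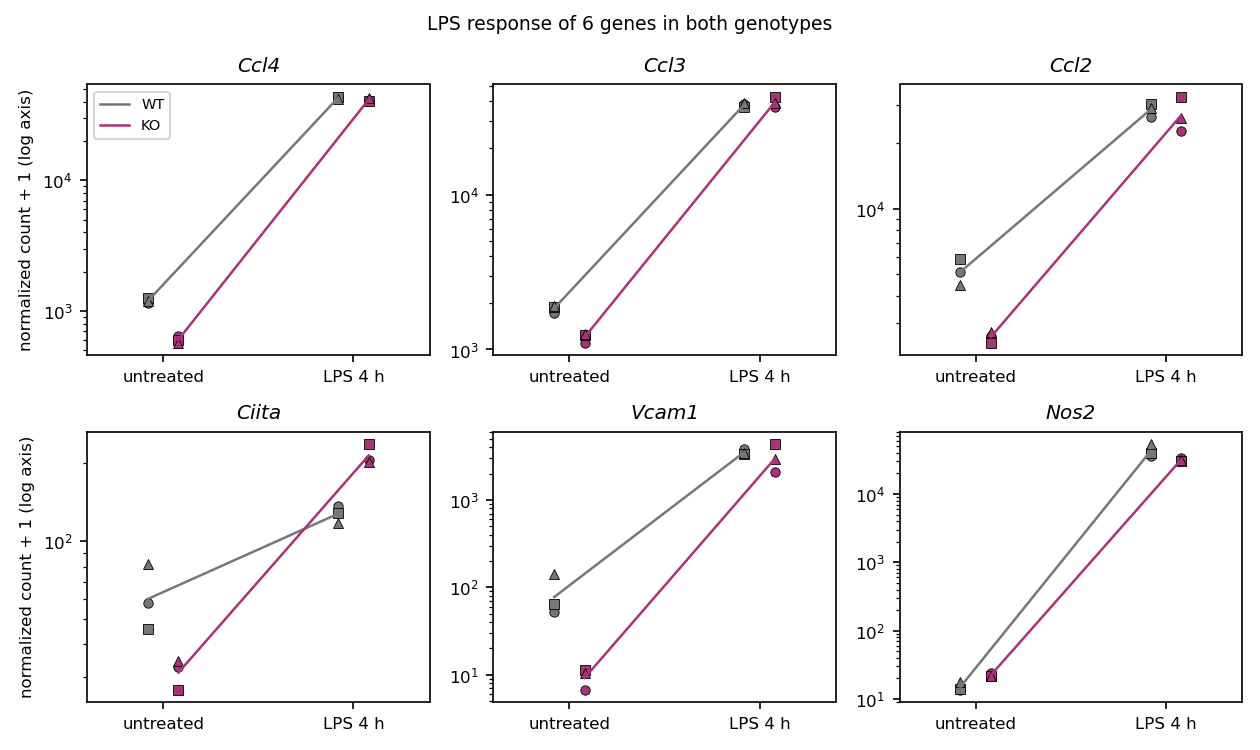
Normalized counts plus 1 (y axis, log scale) of 6 genes in untreated and LPS-treated libraries of WT (grey) and KO (purple) macrophages, with 1 point for each library, replicates by symbol, and lines between the means on the log scale. For Ccl4, Ccl3, Ccl2 and Vcam1 the untreated KO points lie below all untreated WT points, and the LPS-treated points of the genotypes lie close together.

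Some of the genes that the study names as changed by genotype were also read for their response in KO macrophages. The study chose them on these same libraries, and the 32 read here are not its whole list. Of 32 tested, 15 (46.9%) were called higher with LPS and 4 (12.5%) lower, beside 17.3% and 16.6% of all genes. *Serpinb2*, which encodes plasminogen activator inhibitor-2, went from 0.705, 2.57 and 4.3 to 354, 246 and 291 (log2 fold change 6.53). *Ccl12* and *Ccl8* had log2 fold changes of 6.80 and 6.47. In *Serpinb2*, *Ccl12* and *Ccl8* the LPS-treated KO libraries were above every untreated one. Groups did not overlap for 4292 of the 4309 genes called and 76.5% of all tested genes.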

How the data were processed

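BMDMs of WT and KO mice were sequenced untreated or after LPS, 3 libraries a group. Per the labels, the authors used bcl2fastq (2.17), Trimmomatic (0.39), STAR (2.7.4a) on GRCm38, featureCounts of Subread (2.0.1) and DESeq2 (1.32.0). The deposited signal values are gene counts divided by 1 size factor per library. As 100% of values were whole multiples of 1 step per library (tolerance 0.000001 reads), whole reads could be recovered. Blank symbols were filled from GENCODE M21, which also gave gene positions and exon lengths.

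A pseudocount of 1 was added, log2 values were fitted with limma (3.58.1) with a variance trend in R (4.3.3), and genes with a mean of at least 10 were tested with Benjamini-Hochberg adjustment. Calls were made at an adjusted p under 0.05 with a log2 fold change of 1 or more in size, and without the fold limit for the interaction. Named genes are *Rasgef1b*, the 10 largest changes each way, the 5 largest differences in level, up to 4 called genes a list, the markers of other cell types and the 10 smallest interaction p, and some of them are not reported here. Members and lists were chosen with earlier results of these data known. The fit was tested on simulated data of the KO comparison, where 50% of 2-fold and 100% of 4-fold changes among 12716 genes were called, with 1 false call of 146. Only 96 tested genes were changed 2-fold and 97 were changed 4-fold there. The simulated libraries had no shift of composition, no outlier and no pairing, so these figures do not measure the error in the real data. Pairs of KO replicates differed by more than counting error (chi-square per degree of freedom 9.67 to 125), and p-values measure the spread between libraries. Same-numbered KO libraries deviated together from their group means (r = 0.29, 0.28 and 0.17), so the numbers pair the libraries. The sex-linked *Xist* was at 15146 and 17330.1 normalized counts in KO replicate 2 and 5.73 to 16.3 in replicates 1 and 3. It bears on the pairing of replicate 2 only, and donor sex appears mixed within the groups. In untreated WT, the sex-linked genes summed to 18656.9 in replicate 1 and to 4025.24 and 3993.11 in replicates 2 and 3. The part of sex in the results was not tested. The study's methods call its RNA-seq comparisons unpaired, and the fit reported has no block. The alternatives were other pseudocounts, filters, scalings and thresholds, edgeR (4.0.16) and DESeq2 (1.42.0) on the recovered reads, a replicate block and the omission of each library.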

Additional observations from a re-analysis of the deposited data

Results flagged for a closer look

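The response of *Ccl4* to LPS differed between the genotypes by a test of the difference itself. The log2 fold change was 6.09 in KO and 5.16 in WT macrophages, and their difference was 0.93 (limma adjusted p = 3.69e-04), with every untreated KO library below every untreated WT library and LPS-treated libraries that overlapped. The difference was 0.89 to 1.14 over the alternatives, each with an adjusted p under 0.05, among them the tests of edgeR (adjusted p = 0.00261) and DESeq2 (adjusted p = 1.35e-26) on the recovered reads.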

How the results depend on the processing

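No gene called in KO macrophages was called in the other direction under any alternative. The calls in KO macrophages moved most with total count scaling, to 1403 higher and 4725 lower (WT 1349 and 4912), and without a fold limit, to 4626 higher and 4548 lower (WT 4639 and 4627). The excess of higher over lower calls turned with TMM scaling (2075 and 2316), quantile normalization (1951 and 2242), no filter (2778 and 2782), total count scaling and without LPS-treated replicate 1 (2073 and 2119), and was 2568 against 1708 with upper quartile scaling. With the replicate number as a block, the paired analysis called 2205 higher and 2124 lower genes, and the interaction called 6 genes, *Ccl4*, *Ccl3*, *Cp*, *Vcam1*, *Nos2* and *Ifit1bl1*. The interaction called 23 genes with DESeq2 and 1 with edgeR, and from 1 to 3 genes when each library was left out in turn. Of 702 list members tested, the block added 3 calls and removed 0, and of these *Ccr2* is described here. The count of 3 came without untreated KO replicate 1, where *Ifit1bl1* (adjusted p = 0.0142) and *Gja1* (-1.60, adjusted p = 0.0326) passed, and without LPS-treated KO replicate 1, where *Lpar5* (-2.95, adjusted p = 0.00175) and *Ccl3* (adjusted p = 0.0486) passed, and 2 genes were called without untreated WT replicate 2, where *Ciita* passed (adjusted p = 0.0436). Of the values of named genes under the alternatives, 3441 kept their side of the threshold, 68 lost it and 15 gained it. The medians of 23 of 43 lists kept their sign in every alternative, and 17 changed it with total count scaling. Leaving out the replicate 1 pair, chosen after seeing the data, gave 2143 and 2052 calls. Genes with few reads have fold changes made smaller by the pseudocount.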
